A study of Homo sapiens with 6 samples.

Results

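The genes described here build and control sterols and fatty acids. They are 41 genes chosen by name, covering the mevalonate pathway, the squalene and sterol branch, the SREBP control proteins, intracellular sterol transport and fatty acid synthesis, out of 30275 genes listed. All 41 were measured, as were 10140 genes in all. The cells were SKNBE2, a MYCN-amplified neuroblastoma line. The DFMO group had 3 libraries from cells kept for 4 days in 250 µM DFMO (difluoromethylornithine, an inhibitor of ornithine decarboxylase, the enzyme that starts polyamine synthesis), and the Control group had 3 libraries of the same line labelled only as control. The labels do not say whether libraries of a group came from separate cultures, so the p-values measure the spread between these libraries, which may be technical.

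Cells make cholesterol from acetyl-CoA through mevalonate, isoprenoids, squalene and lanosterol, and make fatty acids from the same acetyl-CoA through malonyl-CoA. Most enzymes of both routes are switched on by the SREBP transcription factors, which are made as membrane proteins of the endoplasmic reticulum. SCAP carries SREBP to the Golgi for cleavage when sterols are scarce, and INSIG proteins hold it back when sterols are plentiful. Rapidly dividing tumour cells draw on both routes for membranes.

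The measure was the number of reads that cover the splicing entries of a gene (exons, introns, acceptors and donors), counted for inclusion and exclusion together. An entry counted only where its coverage score was LOW, OK or SOK in all 6 libraries, which kept 1736 of the 2155 entries of these genes, between 7 and 176 a gene. The lowest read number over the libraries had a median of 33 in the 79 kept entries whose lowest score was LOW, and of 17 in the 67 entries left out at VLOW. Sums are given per 1000000 reads of the kept entries (event RPM), and depend on gene length and on the number of entries, so they are compared between libraries and not between genes. "Rose" and "fell" mark an adjusted p below 0.05 in limma, with Benjamini-Hochberg adjustment over all 10140 genes.

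The libraries held between 82918379 and 100005273 reads over all entries in the DFMO group, and between 77648922 and 103250467 in the Control group. All 15 noradrenergic neuroblastoma markers were measured, with summed levels of 6491 to 6562 event RPM in DFMO and 6231 to 6379 in Control. CHGA made up much of these sums, with a mean of 2612 in DFMO and 2225 in Control. Of the 15, 6 (40%) rose and 4 (26.7%) fell, against 23.8% and 27.6% of all genes tested. Of 12 mesenchymal and stromal markers, 4 were measured (VIM, CD44, SNAI2 and ACTA2), with sums of 164 to 180.4 in DFMO and 161 to 168 in Control. FN1, COL1A1, COL1A2 and COL3A1 had no entry that passed, nor had any of 9 blood and endothelial markers, among them PTPRC and PECAM1.

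Read levels of these genes were mostly lower in DFMO cells. Of the 41 genes, 29 fell, 2 rose and 10 did not pass, while over all genes tested 27.6% fell and 23.8% rose. The median difference was -0.29 on the log2 scale, against -0.01 over all genes. In 31 of the 41 genes every DFMO library was below every Control library, which was so in 30.1% of all genes. Summed over the 41 genes, the level was 5933 ± 54.3 event RPM in DFMO and 7146 ± 117 in Control (SD, n = 3 each), a ratio of 0.830. In bulk RNA, fewer cells of a type and less RNA per cell cannot be told apart. Most shifts were moderate: 7 genes fell by at least 1.5-fold, against 1.24% of all genes, and these were ACAT2, MVK, MVD, FDFT1, DHCR7, INSIG1 and IDI1.

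**Figure D1:**
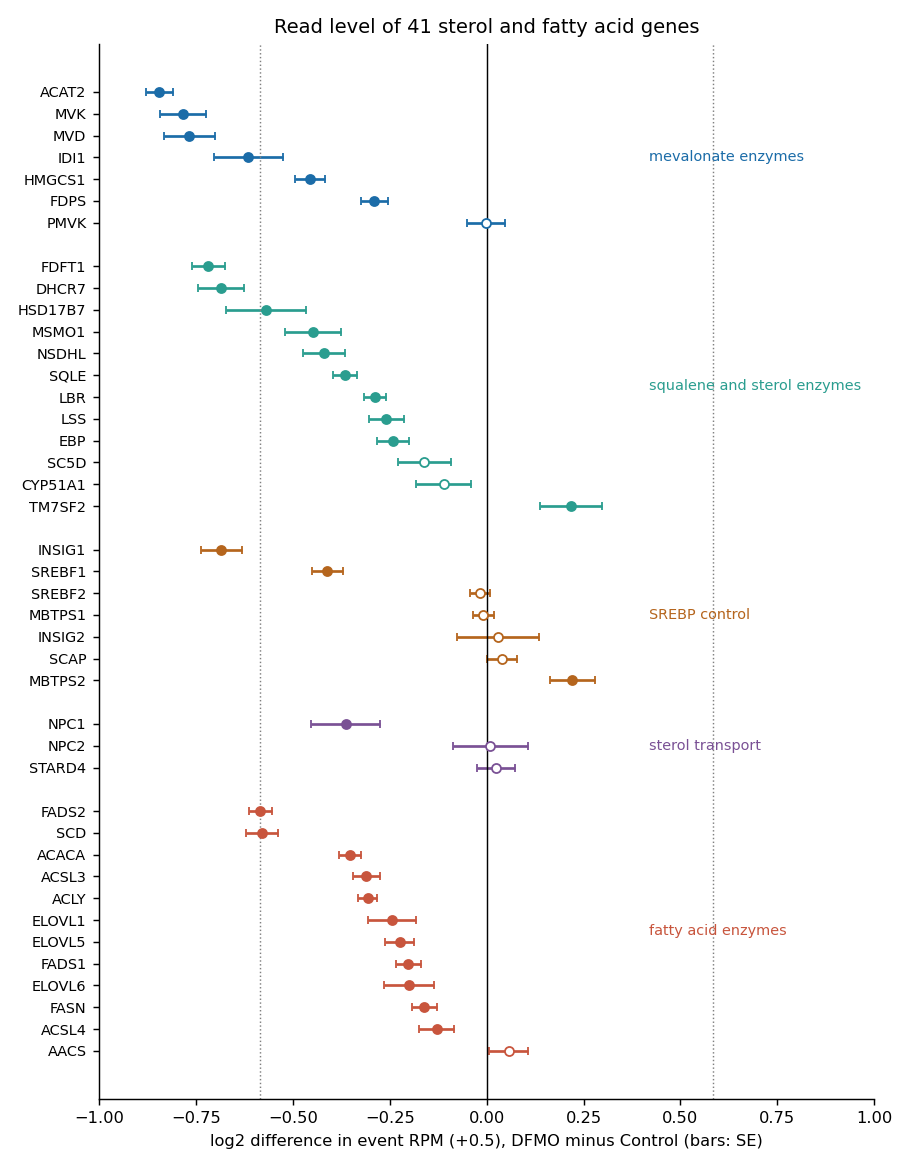
Difference in read level of each of the 41 genes, DFMO minus Control, on the log2(event RPM + 0.5) scale, grouped by role, with bars of 1 SE from limma (3 libraries a group). The mevalonate enzymes ACAT2, MVK and MVD lie furthest to the left, with ACAT2 lowest at -0.84, and most of the SREBP control and sterol transport genes lie near 0.

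**Figure D2:**
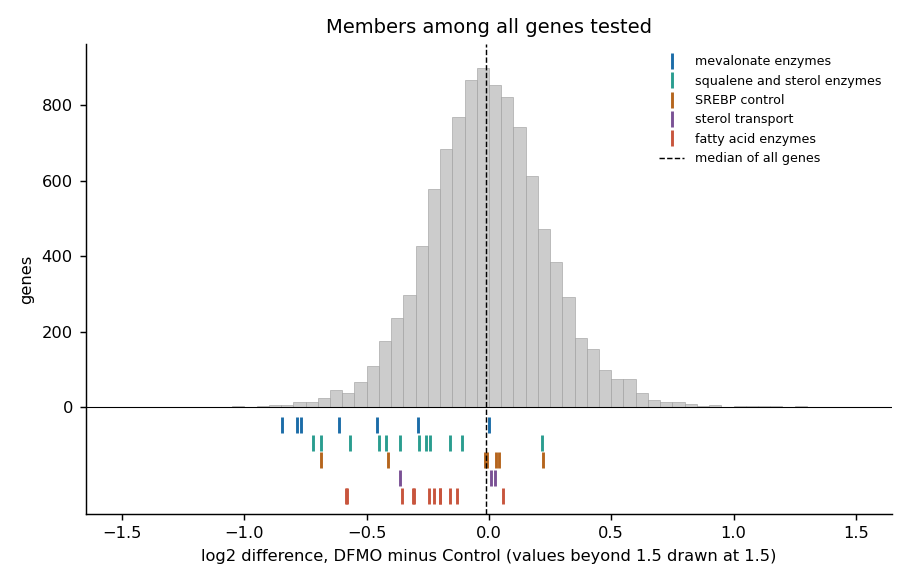
Histogram of the log2 difference, DFMO minus Control, over all 10140 genes, with a tick for each of the 41 genes below it, coloured by role. The dashed line is the median of all genes at -0.01, and the 41 genes have a median of -0.29.

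The mevalonate enzymes had the lowest median of the 5 role groups, a log2 difference of -0.61. Of its 7 enzymes 6 fell and none rose. Their summed level was 456 ± 5.27 event RPM in DFMO and 651 ± 10.5 in Control (SD, n = 3 each), a ratio of 0.700.

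ACAT2, the cytosolic thiolase that joins acetyl-CoA units at the head of the pathway, had 99.0, 99.2 and 102 event RPM in DFMO libraries, against 182, 177 and 182 in Control libraries. It was 1.80-fold lower in DFMO, with a log2 difference of -0.84 ± 0.035 (SE, limma adjusted p = 2.97e-14), the 16th lowest difference of all genes tested. The groups stood far apart, with little spread inside either. All 36 of its entries were lower in DFMO. ACAT2 overlaps TCP1 and SOD2 on the other strand, and no source used here gives the counting strand. How far their reads enter the ACAT2 value was not tested.

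MVK, the kinase that phosphorylates mevalonate, had 31.2, 30.4 and 27.8 event RPM in DFMO, against 54.1, 49.98 and 51.0 in Control. MVD, the decarboxylase that makes isopentenyl diphosphate, had 29.1, 32.0 and 26.5 in DFMO and 52.3, 47.7 and 49.8 in Control. Both fell, MVK by 0.78 ± 0.060 and MVD by 0.77 ± 0.065 on the log2 scale (SE), with limma adjusted p of 3.81e-10 and 2.36e-09, and in neither did the groups overlap.

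IDI1, which turns isopentenyl diphosphate into its isomer, had lower counts and more spread, with 15.2, 19.8 and 17.7 event RPM in DFMO and 26.2, 24.6 and 30.7 in Control. Its log2 difference was -0.61 ± 0.090 (SE, limma adjusted p = 5.43e-06), and the highest DFMO library stayed below the lowest Control library. HMGCS1, the synthase that supplies HMG-CoA, had 108, 99.8 and 104 in DFMO and 142, 142 and 145 in Control, and fell by 0.46. FDPS, which joins isoprene units into farnesyl diphosphate and has pseudogene copies that may share its reads, had 109, 109 and 109 in DFMO and 132, 132 and 136 in Control, and fell by 0.29. HMGCS1 and FDPS kept their groups apart too.

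PMVK, the kinase that acts between MVK and MVD, did not follow them. It had 66.6, 69.1 and 61.7 event RPM in DFMO and 66.7, 66.6 and 64.0 in Control, with fully overlapping groups and a difference near 0 (limma adjusted p = 0.991). Only 13 of its 23 entries were lower in DFMO.

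**Figure D3:**
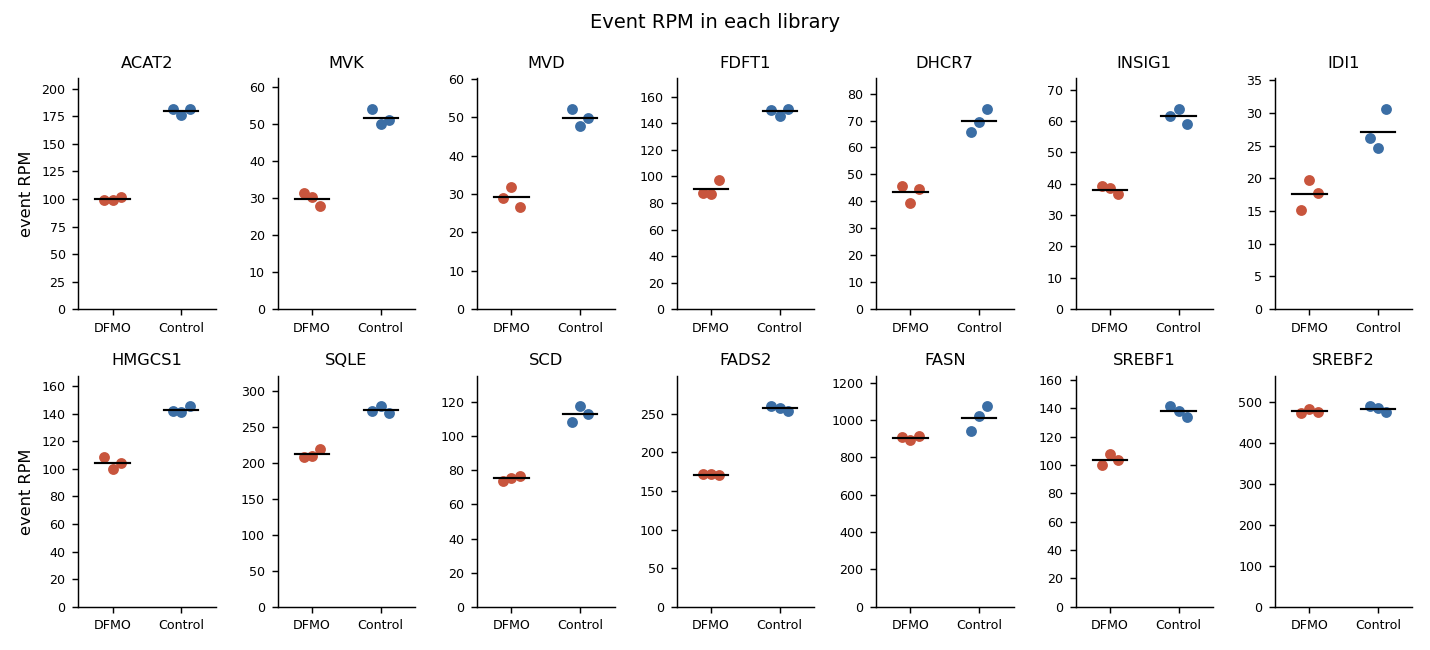
Event RPM in each of the 3 DFMO libraries and 3 Control libraries for selected genes, one panel a gene, each vertical axis starting at 0, with the mean of each group as a bar. The DFMO and Control libraries of ACAT2 are separated, at 99.0 to 102 and 177 to 182, while those of SREBF2 overlap.

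In the branch from farnesyl diphosphate to cholesterol, 9 of 12 enzymes fell, TM7SF2 rose, and CYP51A1 and SC5D did not pass. The median log2 difference was -0.33, and the summed level was 1035 ± 21.7 event RPM in DFMO and 1324 ± 20.5 in Control (SD, n = 3 each).

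The 2 largest shifts were at the first and the last step. FDFT1, squalene synthase, had 87.8, 86.6 and 97.3 event RPM in DFMO and 150.3, 146 and 151 in Control. DHCR7, the reductase that finishes cholesterol from its immediate precursor, had 45.7, 39.6 and 44.8 in DFMO and 65.8, 69.6 and 74.5 in Control. FDFT1 fell by 0.72 ± 0.043 and DHCR7 by 0.69 ± 0.059 on the log2 scale (SE), with limma adjusted p of 8.86e-12 and 2.62e-09, and without overlap between groups.

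HSD17B7, a 3-keto-reductase acting on sterols, had few reads, with 4.20, 3.94 and 3.70 event RPM in DFMO and 5.96, 6.65 and 5.70 in Control. It fell by 0.57, or 1.48-fold, by 0.37 over entries scored OK or SOK and by 0.31 with a pseudocount of 5, and its reads may be shared with close pseudogene copies. MSMO1, which oxidises the methyl groups of the sterol ring, had 19.7, 17.5 and 18.1 in DFMO and 26.4, 23.8 and 25.7 in Control. NSDHL, which works beside it in the removal of those groups, had 35.0, 34.8 and 35.3 in DFMO and 47.0, 46.3 and 47.7 in Control. MSMO1 fell by 0.45 and NSDHL by 0.42, and in both the groups were apart.

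SQLE, the squalene epoxidase and a rate-limiting step of the branch, had 209, 209 and 219 event RPM in DFMO and 273, 279 and 269 in Control. It fell by 0.37 ± 0.031 on the log2 scale (SE, limma adjusted p = 2.19e-09). LSS, which closes the ring to lanosterol, fell by 0.26, LBR, a sterol reductase of the nuclear envelope, by 0.29, and EBP, the sterol isomerase, by 0.24.

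TM7SF2, a sterol reductase with the same activity as LBR, was higher, with 14.9, 15.4 and 14.6 event RPM in DFMO and 13.5, 13.0 and 11.98 in Control. Its rise of 0.22 ± 0.079 on the log2 scale (SE, limma adjusted p = 0.0259) did not pass without DFMO library 1 (0.22, adjusted p = 0.0547), DFMO library 2 (0.20, adjusted p = 0.0771) or Control library 3 (0.17, adjusted p = 0.114). CYP51A1, the lanosterol demethylase, had 19.7, 20.6 and 20.6 in DFMO and 23.4, 22.0 and 20.6 in Control. Its log2 difference of -0.11 did not pass (limma adjusted p = 0.200). All 9 of its kept entries were introns, so the fit on intron entries alone used the same CYP51A1 reads, scaled over intron entries of all genes. There its difference was -0.13 and passed (limma adjusted p = 0.0107), while the median of all genes was -0.03. SC5D, the sterol desaturase, had a log2 difference of -0.16 with a limma adjusted p of 0.0562, and passed at 0.0362 without DFMO library 1, at 0.0420 without Control library 3 and at 4.63e-03 from intron entries alone.

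The proteins that control SREBP did not move as one. INSIG1 and SREBF1 fell, MBTPS2 rose, and SREBF2, SCAP, INSIG2 and MBTPS1 did not pass, with a median log2 difference of -0.01. Of the 7, 28.6% fell, near the 27.6% of all genes tested, and 14.3% rose, against 23.8%. The median over all genes was also -0.01.

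INSIG1, the retention protein that is itself a target of SREBP, had 39.1, 38.5 and 36.6 event RPM in DFMO and 61.6, 64.0 and 59.1 in Control. It fell by 0.69 ± 0.053 on the log2 scale (SE, limma adjusted p = 5.11e-10), and all 25 of its entries were lower. Its paralog INSIG2 had 7.78, 6.54 and 5.88 in DFMO and 6.71, 6.88 and 6.07 in Control, overlapping values with a log2 difference of 0.03.

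SREBF1, which encodes the factor tied mainly to fatty acid genes, had 99.7, 107.5 and 104 event RPM in DFMO and 141, 138 and 134 in Control. It fell by 0.41 ± 0.039 on the log2 scale (SE, limma adjusted p = 1.28e-08). SREBF2, which encodes the factor tied mainly to sterol genes, had 473, 483 and 477 in DFMO and 489.8, 485 and 475 in Control. Its groups overlapped, with a log2 difference of -0.02 ± 0.026 (SE, limma adjusted p = 0.621). From intron entries alone the difference was -0.06 (limma adjusted p = 0.0253), where the median of all genes was -0.03.

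SCAP, the escort of SREBP, had a log2 difference of 0.04, and MBTPS1, the first of the proteases that cut it in the Golgi, one of -0.01. MBTPS2, the second protease, had 39.9, 44.0 and 44.2 event RPM in DFMO and 37.8, 36.5 and 35.4 in Control, and rose by 0.22 ± 0.058 (SE, limma adjusted p = 3.14e-03). The groups of MBTPS2 did not overlap.

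Of the 3 sterol transport genes, NPC1 fell and STARD4 and NPC2 did not pass. That is 33.3% that fell, against 27.6% of all genes tested. NPC1, which exports cholesterol from lysosomes, had 7.44, 7.66 and 8.38 event RPM in DFMO and 10.5, 10.2 and 9.86 in Control, a log2 difference of -0.36 ± 0.089 (SE, limma adjusted p = 1.63e-03). Its partner in the lysosome lumen, NPC2, had a difference of 0.01, and the cytosolic carrier STARD4 one of 0.02.

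Of 12 fatty acid enzymes 11 fell, none of them by 1.5-fold, and the median log2 difference was -0.23. Their summed level was 3189 ± 44.6 event RPM in DFMO and 3863 ± 111 in Control (SD, n = 3 each), a ratio of 0.826.

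The lowest values of the group were those of a pair of desaturases. FADS2, the delta-6 desaturase of polyunsaturated fatty acids, had 172, 172 and 170.5 event RPM in DFMO and 259.9, 258 and 253 in Control. SCD, the desaturase that makes oleate and palmitoleate, had 73.9, 75.4 and 76.7 in DFMO and 108, 117 and 113 in Control. Both fell by 0.58 on the log2 scale, with SE of 0.030 for FADS2 and 0.042 for SCD and limma adjusted p of 1.06e-12 and 2.05e-10.

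FADS1, the delta-5 desaturase beside FADS2, fell by 0.20, with 174, 183 and 179 event RPM in DFMO and 201, 206 and 209.7 in Control. FADS1 and FADS2 overlap on opposite strands and FADS2 overlaps FEN1 on its own strand, so their reads may be shared.

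ACLY, which makes cytosolic acetyl-CoA from citrate for both routes, had 1040.0, 1051 and 1079 event RPM in DFMO and 1259, 1322 and 1341 in Control. ACACA, the carboxylase that makes malonyl-CoA, had 277, 274 and 284 in DFMO and 350.2, 361 and 357 in Control. ACLY fell by 0.31 ± 0.025 and ACACA by 0.35 ± 0.028 on the log2 scale (SE), with limma adjusted p of 1.00e-09 and 9.21e-10.

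FASN, the synthase that builds palmitate, had 907, 892 and 914 event RPM in DFMO and 941, 1022 and 1074 in Control. Its log2 difference was -0.16 ± 0.032 (SE, limma adjusted p = 2.52e-04), and Control library 1 lay close to the DFMO libraries. ACSL3, which activates long-chain fatty acids, had 203, 199 and 219 event RPM in DFMO and 251, 257 and 261 in Control, and fell by 0.31. Its DFMO libraries all lay below its Control libraries. ELOVL1, ELOVL5 and ELOVL6, which lengthen fatty acids, fell by 0.24, 0.22 and 0.20, again without overlap between groups. From acceptor and donor entries alone ELOVL5 had -0.14 and did not pass (adjusted p = 0.200).

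ACSL4, which activates polyunsaturated fatty acids, had the smallest shift that passed, -0.13 with a limma adjusted p of 0.0230. It did not pass without DFMO library 3 (-0.10, adjusted p = 0.109), Control library 1 (-0.11, adjusted p = 0.0946) or Control library 3 (-0.13, adjusted p = 0.0534). ELOVL6 did not pass without DFMO library 2 (-0.17, adjusted p = 0.0548) or Control library 1 (-0.16, adjusted p = 0.0652). AACS, which makes acetoacetyl-CoA from the ketone body acetoacetate, was the enzyme of the group that did not pass, with 50.8, 51.4 and 53.6 event RPM in DFMO and 49.98, 48.5 and 51.2 in Control.

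The lower levels ran through nearly all entries of the genes that fell. Of the 1302 entries of the 29 genes that fell, 1275 (97.9%) were lower in DFMO. Over all genes, whether or not they fell, 53.3% of entries were lower. Every entry was lower in 24 of the 41 genes, among them SC5D, which did not pass. Exon, intron and acceptor or donor entries gave a value for 27 of the 29, and all 27 were lower in each class. Entries share junction reads, so the classes are not independent measures. The 29 genes were also picked by the sum of these same entries, so the high shares of lower entries and classes follow in part from that choice. MVK, SREBF1 and NPC2 each overlap a gene on the opposite strand (MMAB, RAI1 and ISCA2), and TM7SF2 overlaps VPS51 on its own strand, so reads in those stretches may belong to either gene. ACAT2 gave log2 differences of -0.84, -0.87 and -0.84 from exon, intron and acceptor or donor entries, INSIG1 -0.62, -0.68 and -0.72, and SCD -0.48, -0.64 and -0.55.

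**Figure D4:**
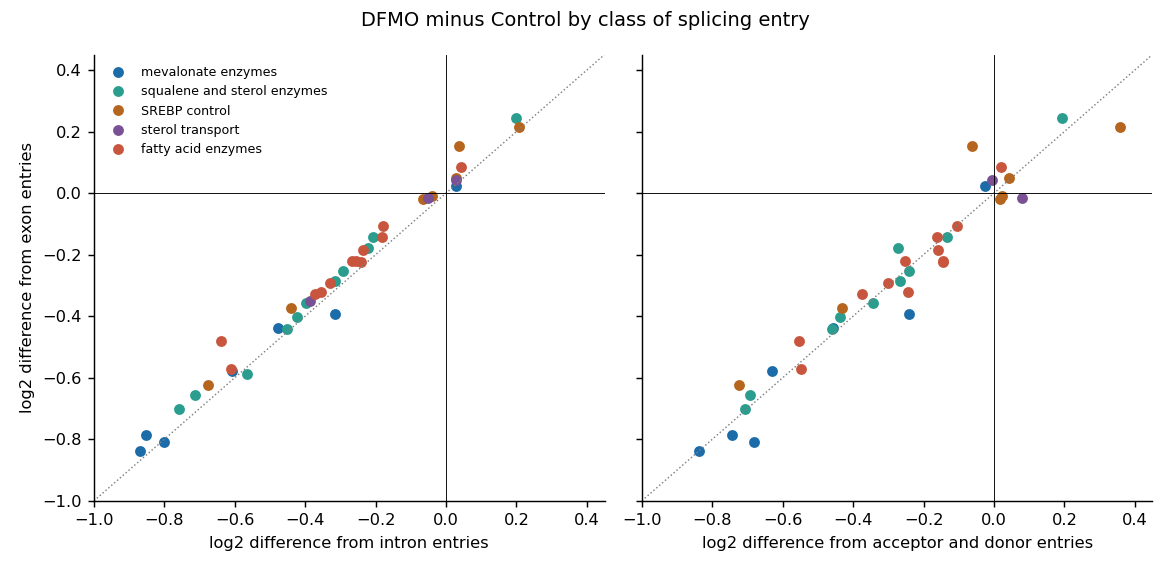
Log2 difference, DFMO minus Control, of each gene from exon entries (vertical axis) against intron entries (left) and acceptor and donor entries (right), with the dotted line marking equality. Most genes of the mevalonate and fatty acid groups follow the line below 0, PMVK and AACS lying just above 0 from exons and introns, with ACAT2 at -0.84 from exons and -0.87 from introns.

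Reads retained inside introns, which come partly from RNA not yet spliced, gave a value for 10 of the 41 genes, those with a mean of at least 20 such reads. This measure was added after the other values were seen. SREBF1 had 15.6, 8.26 and 10.7 retained-intron reads in DFMO and 34.9, 26.9 and 26.5 in Control, scaled to equal depth, so the groups were well apart. Its log2 difference was -1.31 ± 0.33 (SE, limma adjusted p = 1.61e-03 over 1944 genes), and ELOVL6 had -0.49 ± 0.16 (adjusted p = 0.0197). Lower calls made up 6.58% of the 1944 genes. The other 8 did not pass, among them FDPS at 0.23, LBR at 0.42 and ACLY at 0.27, whose sign was opposite to that of their summed level. The median of all genes with this measure was 0.11, so it was shifted upward in general.

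Splicing calls within these genes were few in number. Of 65 tested events in 24 of the genes, 4 passed an adjusted p below 0.05 with a difference of at least 10 percentage points. That is a higher share than the 2.97% of 16314 events in the whole table, but it rests on 4 events. The calls lay in FDPS, ELOVL6 and AACS, 2 of them in AACS, which makes them too few to describe a trend in direction.

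The FDPS event is a choice between 2 acceptors 21 bases apart. The upstream one adds the stretch chr1:155310043-155310063 (GRCh38, plus strand), which lies in an exon of 7 of 21 annotated transcripts and is coding in 4 of them. Its length keeps the reading frame. The stretch is shown in capitals because all of it is added or left out, and it ends in the CAG that precedes the downstream acceptor:
FDPS: AGCCCTTTGCTCCTCCCTCAG

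The upstream FDPS acceptor was used in 34.6%, 46.9% and 40.5% of reads in DFMO and 55.4%, 47.9% and 54.1% in Control, so that DFMO library 2 lay just below Control library 2. The difference was -11.8 points (limma adjusted p = 7.72e-03), on 355 to 580 reads a library. It did not pass without DFMO library 1 (-8.78 points, adjusted p = 0.236) or Control library 1 (-10.4 points, adjusted p = 0.0879).

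In ELOVL6 the intron chr4:110198368-110198521 (GRCh38, minus strand, 154 bases) was retained in 70.2%, 71.0% and 66.9% of reads in DFMO and 75.6%, 85.6% and 82.6% in Control. The segment lies in the 5′ untranslated part of 1 annotated coding transcript and is spliced out in 1 other transcript. The difference of -11.9 points had a limma adjusted p of 0.0179 and did not pass without DFMO library 1 (0.0502), DFMO library 3 (0.0870), Control library 2 (0.140) or Control library 3 (0.0696). The retained-intron reads behind the ELOVL6 difference given above came almost wholly from this intron, so both results rest largely on the same reads.

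AACS had 2 neighbouring called exons, coding exons 10 and 11 of the full-length transcript, whose lengths of 125 and 65 bases both shift the reading frame when skipped. Exon 10 is chr12:125118641-125118765 and exon 11 is chr12:125124705-125124769 (GRCh38, plus strand). They are shown in lower case because each is taken in or left out whole, with the letters of the GENCODE transcript:
AACS exon 10: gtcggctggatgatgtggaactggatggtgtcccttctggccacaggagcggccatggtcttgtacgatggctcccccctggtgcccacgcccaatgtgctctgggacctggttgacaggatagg
AACS exon 11: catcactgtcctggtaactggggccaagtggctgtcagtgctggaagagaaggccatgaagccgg

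AACS exon 10 was included at 97.0%, 100.0% and 98.3% in DFMO and 82.6%, 80.7% and 88.0% in Control, and exon 11 at 93.0%, 95.1% and 95.6% in DFMO and 79.6%, 83.2% and 83.7% in Control. The groups were apart in both, with differences of 14.7 points (limma adjusted p = 0.0439) and 12.4 points (adjusted p = 0.0226). Both calls were thin. Exon 10 did not pass without DFMO library 1 or 3 or any Control library (adjusted p from 0.0635 to 0.156), and passed at 0.0198 without DFMO library 2. Exon 11 did not pass without DFMO library 2 or 3 or any Control library (adjusted p from 0.0542 to 0.0877), and passed at 0.0396 without DFMO library 1. The exons can share skipping reads, so the 2 calls are not independent.

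AACS has a pseudogene copy, AACSP1. Its entries, none of which passed the coverage rule, held 286, 272 and 239 reads in DFMO and 92, 84 and 129 in Control, or 2.97, 3.40 and 2.87 event RPM in DFMO against 1.12, 1.12 and 1.29 in Control. Its part in the AACS result was not tested.

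The next events by adjusted p stayed short of a call. A 127-base exon of STARD4, chr5:111501962-111502088, reached a limma adjusted p of 0.0302 with a difference of only 4.90 points. A 148-base segment of ACACA that no annotated exon matches, chr17:37328839-37328986, was included at 16.6%, 15.7% and 15.5% in DFMO and 4.92%, 6.92% and 4.96% in Control, with groups far apart and an adjusted p of 0.0560. A 221-base exon of SCAP, chr3:47427447-47427667, was included at 80.4%, 88.2% and 87.0% in DFMO and 72.6%, 77.8% and 74.7% in Control (adjusted p = 0.0961). A further 54-base AACS segment, which no annotated exon matches either, differed by 7.54 points (adjusted p = 0.0521) and an LSS intron by -4.37 points (adjusted p = 0.123).

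**Figure D5:**
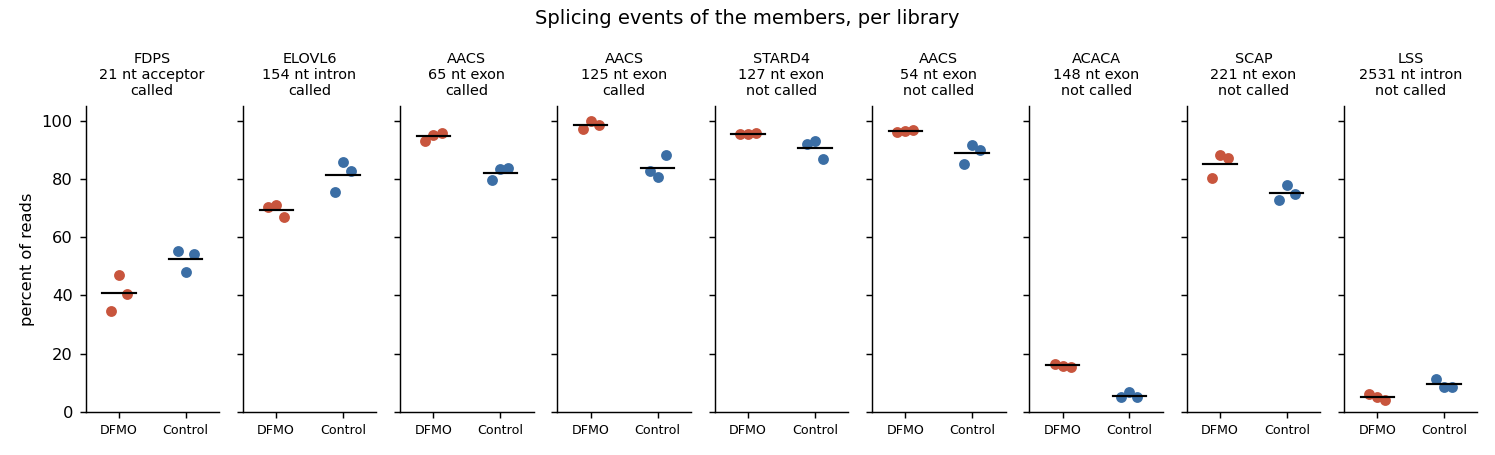
Percent of reads that include the exon, retain the intron or use the acceptor, in each of 3 DFMO libraries and 3 Control libraries, for the 4 called events and the next 5 by adjusted p, with each group mean as a bar. The called AACS exons stand higher in DFMO, at 93.0 to 100.0% against 79.6 to 88.0% in Control, and the FDPS acceptor and ELOVL6 intron stand lower.

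SREBP factors act through the sterol regulatory element together with helper factors such as NF-Y, which binds the CCAAT box, and Sp1. The promoters are shown because these genes moved together while SREBF2 did not pass: MVK, MVD and INSIG1 have the lowest log2 differences among genes that fell and have 1 listed start, and SREBF2 stands beside them. Each line holds the 150 bases before the RefSeq start (GRCh38.p14), read along the gene, at chr12:109573644-109573793 (plus strand), chr16:88663092-88663241 (minus), chr7:155297728-155297877 (plus) and chr22:41832955-41833104 (plus). Capitals mark matches to CCAAT, to the Sp1 box GGGCGG, to the E-box CACGTG or to the sterol regulatory element TCACNCCAC, on either strand, neighbouring or overlapping matches run together, and the last match of SREBF2 runs past its start and is shown up to it:
MVK: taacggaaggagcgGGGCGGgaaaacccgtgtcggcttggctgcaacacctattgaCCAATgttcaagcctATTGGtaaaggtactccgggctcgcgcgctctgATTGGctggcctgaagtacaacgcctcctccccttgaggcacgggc
MVD: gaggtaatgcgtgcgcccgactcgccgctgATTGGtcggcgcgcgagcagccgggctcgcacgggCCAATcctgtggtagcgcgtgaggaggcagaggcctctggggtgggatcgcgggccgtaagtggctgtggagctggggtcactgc
INSIG1: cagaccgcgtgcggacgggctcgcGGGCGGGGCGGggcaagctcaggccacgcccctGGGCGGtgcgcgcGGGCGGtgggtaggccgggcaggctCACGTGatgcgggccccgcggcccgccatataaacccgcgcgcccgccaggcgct
SREBF2: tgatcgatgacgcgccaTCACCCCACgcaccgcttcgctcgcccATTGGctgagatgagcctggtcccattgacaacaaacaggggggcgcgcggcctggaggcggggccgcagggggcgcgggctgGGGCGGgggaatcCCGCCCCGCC

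MVK holds 3 CCAAT boxes in this stretch and MVD 2, INSIG1 holds 4 Sp1 boxes and an E-box, and SREBF2 holds the element TCACCCCAC 133 bases before its start. RefSeq promoter sequence, from 250 bases before to 50 after each listed start, was at hand for 37 of the 41 genes. The others were FASN, ACAT2, FDFT1 and SQLE. A gene counted as a match where any of its listed starts matched. The number of starts was not made equal between these genes and the others, so the shares may differ for that reason too. CCAAT was found in 24 of the 37 (64.9%), against 44.3% of 7925 measured genes and 39.7% of all 27305 symbols. It was in 19 of the 25 genes that fell and 5 of the 12 others. GGGCGG was in 86.5%, against 79.2% of measured genes, and CACGTG in 13.5%, against 13.6%. TCACNCCAC was found in SREBF2 alone, 2.70% of the 37, against 1.39% of measured genes. A match describes letters only and is not a bound site. Only these exact strings were searched and only in this stretch, so an element with other letters or further from the start would be missed.

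Further genes of sterol handling, of which 25 were measured, were split. There were 8 that rose, 10 that fell and 7 that did not pass, with a median log2 difference of -0.09. By share, 32% rose and 40% fell, against 23.8% and 27.6% of all genes tested. SOAT1, which esterifies cholesterol for storage, fell by 0.36, with 46.0 ± 2.02 event RPM in DFMO and 59.1 ± 2.65 in Control (SD, n = 3 each, limma adjusted p = 6.55e-06). ERLIN2, an endoplasmic reticulum protein that takes part in SREBP retention and protein degradation, rose by 0.54, with 55.0 ± 1.64 in DFMO and 37.6 ± 2.55 in Control (adjusted p = 5.63e-08). ABCG1, a sterol exporter, rose by 0.42 and CYB5R3, an electron donor to sterol and fatty acid desaturation, by 0.35.

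Further fatty acid genes, of which 21 were measured, gave 4 that rose, 9 that fell and 8 that did not pass. Their median log2 difference was -0.13. By share, 19.0% rose and 42.9% fell, against 23.8% and 27.6% of all genes tested. DBI, which binds acyl-CoA, fell by 0.49, with 79.4 ± 2.98 event RPM in DFMO and 111 ± 3.03 in Control (SD, n = 3 each, limma adjusted p = 3.00e-09). SLC25A1, which exports the citrate that ACLY uses, fell by 0.41, and the mitochondrial transacylase MCAT by 0.34. Of the elongation cycle partners of the ELOVL enzymes, HACD3 and HSD17B12 rose by 0.42 and 0.32 and TECR fell by 0.13, while HACD1 (-0.10) and HACD2 (0.14) did not pass. The mitochondrial reductase MECR rose by 0.20.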

How the data were processed

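SKNBE2 RNA from 3 DFMO and 3 Control samples was made into stranded mRNA libraries read as single reads of 100 bases, per the labels. The authors deposited 1 table of splicing entries with a percent of inclusion per library and a quality text holding a coverage score and read numbers. The build was GRCh38, per the submitters' processing notes, and no aligner or quantifier is named there. Percents recomputed from the reads differed by at most 0.05 points in 100% of entries.

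Reads for inclusion and exclusion were summed per gene over entries scored LOW, OK or SOK in all 6 libraries, scaled to 1000000 over all such entries with a gene symbol (0.0319% of passing reads had none) and tested with limma 3.58.1 in R 4.3.3 on log2(value + 0.5), with a variance trend and robust variances, two-sided, so folds of low genes are understated. Splicing was tested in limma on log2 odds (0.5 added to both reads) with a variance trend, for events with at least 10 reads in every library and a mean of 5 to 95%, adjusted within 4 event classes; of 2-site acceptor and donor events 1 entry was used. Both scripts were tested on simulated data. Replicates of a group differed by 1.92 to 2.42 times the counting variance over 8361 exon entries, so no library was a copy of another. Errors are SD or SE over 3 libraries.

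The members and lists were chosen with earlier results of these data known, so their counts are descriptions. Values are given in every library for the genes that passed with the largest differences and for 7 genes picked for their role, with every called event and the next 5, and up to 3 genes a direction of the further lists; 2 genes this covers are not reported here. Alternatives changed scaling, pseudocount, filters, entry classes, variance model and libraries.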

Additional observations from a re-analysis of the deposited data

How the results depend on the processing

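The 29 genes that fell stayed lower in DFMO under every alternative that measured them other than retained-intron reads, a measure chosen after seeing the data. There FDPS (0.23), LBR (0.42) and ACLY (0.27) were higher, none of the 3 passed, and the median of all genes was 0.11. Counts of members that fell ranged from 24 of 38 measured with acceptor and donor entries only to 32 of 41 with intron entries only. With 1 library left out they ranged from 27 to 30. Over all genes, intron entries only gave 3129 that fell and 2184 that rose, against 2797 and 2409 with all entries. With 1 library left out, 7 to 8 members were at least 1.5-fold lower and 1 to 2 rose. With acceptor and donor entries only, ELOVL5, ELOVL6 and ACSL4 did not pass (adjusted p of 0.200, 0.347 and 0.348), MBTPS2 stood at 0.36, 1 member rose, 1676 of all genes fell and 1310 rose. With a pseudocount of 5, 51 of all genes were at least 1.5-fold lower and 48 higher, against 126 and 142. With a mean of at least 10 event RPM, 89 were higher. With the mean of log2(1 + value) over entries, which shrinks folds by its construction, 10 were lower, 17 higher and 1 member lower, and 16 members that passed had their difference reduced by over 1.5 times. With 1 library left out, all genes that fell numbered 2533 to 2592 and those that rose 2120 to 2246. Among splicing events, dropping the variance trend left 12 higher, 2 lower and 0 in members, against 305, 179 and 4, and dropping the filter on the mean percent left 1 in members. The cause of these changes was not tested. With 1 library left out, 190 to 278 events were higher, 116 to 142 lower and 1 to 3 were in members, lowest without DFMO library 1. Same-numbered DFMO and Control libraries did not deviate together (correlations of -0.01, -0.01 and -0.03), so no pairing by replicate number was seen. These correlations cannot show whether same-numbered libraries were prepared together. With the replicate number as a block, 29 members fell and 2 rose, as without it, and 2764 of all genes fell and 2383 rose. Of the events, 300 were higher, 171 lower and 3 in members, AACS exon 10 being lost (limma adjusted p = 0.0591). Depth limits the low genes most: HSD17B7, INSIG2, NPC1 and NPC2 lie under 11 event RPM.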
